A study of Mus musculus with 4 samples.

Results

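The 3' fragments of transfer RNA that keep the CCA tail were examined among the small RNAs bound to the RNA-induced silencing complex (RISC) in mouse brain. A read belonged to the group when it matched no miRNA, carried the name of a mouse tRNA, and ended in the letters CCA. There were 860 such sequences among 85704 in the whole table, beside 4652 tRNA-named sequences that did not end in CCA and 40045 sequences with a miRNA name. Of the 860, 689 were named after nuclear tRNAs of 42 isoacceptors and 171 after 14 mitochondrial tRNAs. An isoacceptor is written here as the amino acid and the anticodon, so that His-GTG is the histidine tRNA with the anticodon GTG. Where several tRNA genes shared a read, the first named gene set its isoacceptor, and 24 members carried the names of more than 1 isoacceptor.

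The libraries came from C57BL/6J (BL6) mice, males per the study's methods, of 2 months (young) and 18 months (old) of age, with 2 libraries per age and no other treatment or transgene. Cortex and hippocampus were lysed together, and Argonaute proteins, which hold the guide RNAs of the RISC, were pulled down with a FLAG-tagged peptide of their partner GW182. RNA of 19 to 35 nucleotides was cut from a gel before the small RNA libraries were made. Nothing stated that each library came from a separate animal, so p-values measure the spread between these libraries, and in bulk tissue fewer cells of a type cannot be told apart from less RNA per cell. Between 9067007 and 11388999 reads stood behind each library, of which 17255 and 17995 in the 2-month and 16069 and 9903 in the 18-month libraries were members.

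Every working tRNA ends in CCA. The letters are not encoded in the nuclear or mitochondrial genes of the mouse but are added by the CCA-adding enzyme TRNT1 after the precursor's 3' trailer has been removed, and the amino acid is loaded on the last A. The letters CCA can also occur inside a tRNA, so that a read ending in them need not reach the tRNA's 3' end. Of the 171 mitochondrial members, 121 matched the end of the named gene followed by CCA, and for mt-Tl1, a mitochondrial leucine tRNA, 3 of 23 did. Fragments of the mature 3' end arise when the tRNA is cut within its T loop, the loop nearest the 3' end, are called 3' tRFs, and some are loaded into Argonaute, where bases 2 to 7 form the 6mer seed that pairs with target mRNAs. The 6mer seed viability is the mean viability, in percent, of cells given a small RNA with that seed. A low value means a toxic seed.

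The most abundant member of each of the 10 most abundant isoacceptors is printed below from 5' to 3', since these reads carried most of the results. The seed, bases 2 to 7, is in capitals.
His-GTG, 22 bases: tCGAATCcgagtcacggcacca
Val-CAC, 18 bases: aACCGGGcggaaacacca
Gly-CCC, 18 bases: tTCCCGGgcggcgcacca
Ser-TGA, 18 bases: aCCCTGCtcgctgcgcca
Ala-CGC, 18 bases: tCCCCGGcatctccacca
Ser-GCT, 22 bases: tCGAATCccatcctcgtcgcca
Ser-AGA, 18 bases: aTCCTGCcgactacgcca
Cys-GCA, 17 bases: tCCGGGTgccccctcca
Gly-TCC, 18 bases: tTCCCGGccaacgcacca
mt-Tv, 18 bases: cAATGAAcactctgacca
Most of these reads could not be traced to a single gene. The His-GTG read was shared by 8 named tRNA genes on chromosomes 2, 3 and 4, and the Gly-TCC read by 7 genes on chromosomes 1, 3 and 11. The Val-CAC read had 5 gene names and the Gly-CCC read 2, whereas the Ser-TGA read had 1, on chromosome 10, and the Ser-AGA read 1, on chromosome 13. mt-Tv is the mitochondrial valine tRNA, transcribed from the plus strand of chromosome M between positions 1025 and 1093 (GRCm38).

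The group was dominated by a few sequences. The His-GTG 22-mer alone made up 17.2% of the members' reads, and the 10 most abundant members together made up 50.1%. At the other end, 168 members were seen in 1 library only, 304 were seen in all 4, and 154 reached a mean of 1 CPM, the level unit used throughout, for which the authors scaled the reads of each library to the same total. In summed level His-GTG stood first at a mean of 351 CPM, followed by Val-CAC at 169 CPM and Gly-CCC at 126 CPM, and these 3 held 44.3% of the members' CPM.

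Per library, the summed His-GTG members reached 469 and 444 CPM in young and 386 and 106 CPM in old mice. Val-CAC reached 180.1 and 184 CPM in young and 183 and 128 CPM in old mice. Gly-CCC reached 133 and 122 CPM in young and 143 and 107 CPM in old mice. His-GTG stood above both others in 3 libraries, and in replicate 2 of the 18-month mice it was about level with Gly-CCC and below Val-CAC. Ser-TGA (64.8 CPM), Ala-CGC (59.0), Ser-GCT (57.3), Ser-AGA (48.1), Cys-GCA (41.2), Gly-TCC (33.9) and mt-Tv (33.8) followed by mean summed CPM, and the library values of each of these neighbours in the order overlapped. In all, 29 isoacceptors had a mean of at least 10 CPM and together held 90.3% of the members' CPM. The other 19 were, in falling order, Ala-TGC, Leu-AAG, Pro-CGG, Met-CAT, Phe-GAA, Leu-CAG, Trp-CCA, Gly-GCC, Ile-TAT, Arg-CCT, Thr-AGT, mt-Th, mt-Tt, mt-Tf, Asp-GTC, Glu-CTC, mt-Tm, Ser-CGA and Asn-GTT.

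The share of a tRNA's reads that ended in CCA differed widely between isoacceptors. It was 62.4% for His-GTG, 51.3% for Ser-TGA and 33.8% for Val-CAC, but 10.2% for Leu-AAG, 5.94% for Glu-CTC and 2.20% for Asn-GTT. Mitochondrial tRNAs covered most of the range. The share was above 50% in 11 of the 14, with 76.8% for mt-Tv, 96.7% for mt-Tt and 97.6% for mt-Tr, but it was 33.6% for mt-Ti, 16.9% for mt-Tl1 and 13.9% for mt-Ts2. More than 50% of the tRNA reads ended in CCA in 7 of the 29 isoacceptors with a mean of 10 CPM or more. Reads with bases added after the tail, described below, counted as not ending in CCA. Leu-AAG had a mean of 143 CPM of them beside 29.3 CPM of members, and the mitochondrial tRNAs had 9 such reads in all. Their part in the differences in share was not tested.

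For a member that ends at the tail's A, position 76 in the usual tRNA numbering, the length gives the position of its first base. Of the 120 members of 23 or more bases, 34 had the T-loop letters TTCNA at the matching place, so this reading was not applied to all of them. Among the 67 nuclear ones 32 had these letters. Shorter members were not checked by these letters, and their positions below assume that they end at the tail's A. Members were 15 to 32 bases long, and their reads fell into a short and a long class. Reads of 18 bases, which start at position 59, made up 39.1% of the members' CPM, and reads of 22 bases, which start at position 55 in the T loop, made up 32.7%. Between these lengths lay 7.32% at 19 bases, 2.41% at 20 bases and 2.77% at 21 bases. Other tRNA reads had no such gap at 20 and 21 bases, with 18.1% of their CPM at 20 bases and 14.8% at 21 bases. They were not a separate set of fragments. The 18-base members with 1 to 3 bases added after the tail, described below, summed to a mean of 999 CPM. Those with a tRNA name were counted among the other tRNA reads. The short class lay at and below the lower edge of the gel cut, so that its true level relative to the 22-mers cannot be read from these libraries.

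The isoacceptors differed in class, and some were mixed. His-GTG had 94.4% of its CPM at 21 to 23 bases and 1.57% at 17 to 19 bases, and Met-CAT (79.6% at 21 to 23 bases) and Ser-GCT (74.4%) leaned the same way. Val-CAC had 96.5% of its CPM at 17 to 19 bases, as did Ala-TGC (96.4%), Ser-TGA (95.8%), Ala-CGC (93.0%) and Ser-AGA (91.6%). Isoacceptors of 1 amino acid could differ, since Ser-GCT was mostly long while Ser-TGA and Ser-AGA were mostly short. Several were spread over both, such as Pro-CGG with 49.1% short and 43.2% long, Phe-GAA with 57.7% and 34.2%, and Asn-GTT with 45.7% and 33.3%. Trp-CCA had 27.1% at 17 to 19 and 38.8% at 21 to 23 bases, and mt-Th had only 25.3% and 8.26%.

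Per library, 18-mers reached 620 and 559 CPM in young and 594 and 506 CPM in old mice, and the ages overlapped. The 22-mers reached 602 and 571 CPM in young and 510 and 228 CPM in old mice, so that both 18-month libraries were lower. His-GTG carried most of that. Without it the 22-mers stood at 167 and 161 CPM in young and 159 and 129 CPM in old mice.

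Because the last bases of many tRNAs are alike, different isoacceptors shared seeds. The 860 members held 449 seeds, of which 119 occurred in more than 1 isoacceptor, and the 10 most abundant seeds covered 61.1% of the members' CPM. The seed CGAAUC led at 20.5% and came from the 22-mers of His-GTG, Ser-GCT, Trp-CCA and 8 other isoacceptors. The seed UCCCGG followed at 9.65%, from the 18-mers of the glycine tRNAs Gly-CCC, Gly-TCC and Gly-GCC as well as Glu-CTC and others. Members made up 71.4% of all reads in the libraries with the seed CGAAUC and 35.5% of those with UCCCGG, and no abundant miRNA had either seed. Of the next 8 seeds, UCCCAC, carried by the 18-mers of Leu-AAG and Leu-CAG, was also the seed of miR-188-3p, which stood at 42.8 CPM.

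A shift of 1 base in the cut moved the seed and with it the viability. The Val-CAC 18-mer had the seed ACCGGG with a viability of 71.2%, and the Val-CAC 17-mer, which starts 1 base later, had the seed CCGGGC with a viability of 9.30%. The 17-mers as a class had a read-weighted mean viability of 36.3%, against 60.3% for the 18-mers and 68.1% for the 22-mers. Toxic seeds also came from 2 serine isoacceptors, since the Ser-TGA 18-mer had the seed CCCUGC at 20.7% and the Ser-AGA 18-mer the seed UCCUGC at 25.1%. The Ser-GCT 22-mer, in contrast, had the seed CGAAUC at 74.4%. Among the printed reads the Cys-GCA 17-mer, with the seed CCGGGU at 17.9%, was toxic as well. The highest value among the printed reads was 86.5%, for the mt-Tv read.

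In total, the read-weighted mean 6mer seed viability of the members was 61.5% and 60.0% in young and 61.0% and 58.4% in old mice. The ages overlapped, and an exact two-sided permutation test of the libraries gave p = 0.67, where 0.33 is the smallest value that 2 against 2 libraries can give. The share of the members' reads with a seed viability under 50% was 22.4% and 25.1% in young and 23.5% and 28.3% in old mice, again with overlap (exact permutation p = 0.67). By comparison, other tRNA reads, which include members with added bases, had a mean viability between 61.1% and 63.2% in the 4 libraries. Reads with a miRNA name had one between 57.8% and 58.5%. The members had more reads at the toxic extreme, with 16.8% under 30% viability against 9.40% of other tRNA reads and 3.93% of miRNA reads, but also 47.6% at or above 70%, against 45.0% and 25.4%. Members began with T in 56.8% and with A in 30.4% of reads, and miRNA-named reads with T in 72.9%.

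The long class held a second feature in its seed. Position 58 of the tRNA, in the T loop, is an A that is known to be methylated on its base in many tRNAs (m1A), and reverse transcriptase often puts a wrong base opposite a methylated one. In a 22-mer this A is base 4, inside the seed. The forms of the His-GTG 22-mer that differ at that base are printed with base 4 in capitals, and positions are counted from 1 at the 5' end.
no substitution: tcgAatccgagtcacggcacca
A4T: tcgTatccgagtcacggcacca
A4G: tcgGatccgagtcacggcacca
A4C: tcgCatccgagtcacggcacca
The form with A reached 342, 316, 270 and 77.1 CPM in the 2-month replicates 1 and 2 and the 18-month replicates 1 and 2. In the same order A4T reached 63.3, 62.3, 54.2 and 15.4 CPM, and A4G reached 22.7, 23.6, 20.4 and 5.84 CPM. A4C was rare, at 1.33, 3.42 and 2.17 CPM and 0 in the last library, where 3 reads would correspond to 0.331 CPM. All forms were lowest in replicate 2 of the 18-month mice, and their proportions were nearly constant, with A4T at 14.7%, 15.4%, 15.6% and 15.7% of the 4 forms and A4G at 5.28%, 5.83%, 5.90% and 5.94%.

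Base 4 stood apart from the rest of the read. Single-base substitutions at base 4 of the His-GTG 22-mer summed to 27.4% of the level of the form with A, and at each of the 18 other positions before the CCA tail they summed to at most 0.184%. Over all 22-mers of nuclear tRNAs that start with TCG or TCA, another base than A stood at base 4 in 19.5% (95% Wilson interval 18.6 to 20.5%) and 22.05% (21.1 to 23.1%) of reads in young mice and in 20.3% (19.2 to 21.4%) and 21.5% (19.8 to 23.4%) in old mice. The ages overlapped (exact permutation p = 1). Among the 11 groups of 22-mers that differ only at base 4 and had a mean of at least 2 CPM, the share ran from 0% in Trp-CCA to 68.3% in 1 of the 2 Gly-CCC groups, with a median of 15.6%. It was 18.2% for Ser-GCT, 15.2% for Met-CAT, 13.4% for Pro-CGG and 32.8% for Gly-TCC.

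In members of 19 to 23 bases, the lengths examined, other letters at position 58 were found at each length, although not in every isoacceptor. Where position 58 was the first base, in 19-mers, 18.1% of the reads of nuclear families had another base than A, with 12.4% T and 3.43% G. In 21-mers, where it is base 3, the share with T was 23.9% and with G 9.92%. In the seed, the substitution A4T changed CGAAUC to CGUAUC and left the assigned viability nearly as it was, at 71.5% against 74.4%. A4G changed it to CGGAUC, with an assigned viability of 33.9%, and A4C to CGCAUC, with 42.9%. CGGAUC is also the seed of miR-127-3p, an imprinted miRNA, of which 9354 CPM carried this seed, while members with it reached 20.8 CPM. Whether the RNA itself or only the sequenced copy carried the other letter was not tested.

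Many reads in the libraries were members with further bases after the CCA tail. Reads of 1 to 3 bases added to a member, found without regard to their tRNA name, comprised 1075 sequences and summed to 1392 and 1348 CPM in young and 1190.4 and 1209 CPM in old mice. For comparison, the members themselves summed to 1646, 1580.0, 1519.5 and 1092 CPM in the same order, so that extended reads were about as frequent as the reads that ended in CCA. Of their CPM, 90.6% carried only A and T as added bases, 46.6% only T and 30.8% only A. A single T was the most common addition, at a mean of 335 CPM, ahead of a single A at 228 CPM, TT at 191 CPM and AA at 114 CPM. In the genome the precursor's trailer follows the last encoded base directly, without the CCA between them. The added bases were not compared with the trailers, and their origin was not tested. In the summed level of extended reads both 18-month libraries were lower (exact permutation p = 0.33, the smallest possible).

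The 2 length classes differed sharply in these additions, as the forms of 1 short and 1 long read show. Added bases are in capitals.
Gly-CCC: ttcccgggcggcgcacca
Gly-CCC with T: ttcccgggcggcgcaccaT
Gly-CCC with A: ttcccgggcggcgcaccaA
Gly-CCC with TT: ttcccgggcggcgcaccaTT
His-GTG: tcgaatccgagtcacggcacca
His-GTG with T: tcgaatccgagtcacggcaccaT
His-GTG with A: tcgaatccgagtcacggcaccaA
His-GTG with TT: tcgaatccgagtcacggcaccaTT
The Gly-CCC 18-mer had a mean of 92.6 CPM, and its forms with T, A and TT had 45.2, 34.5 and 21.7 CPM. The His-GTG 22-mer had a mean of 251 CPM, and its forms with T, A and TT had 24.05, 12.05 and 0.745 CPM. Over all members, 18-mers had 1.74, 1.83, 1.56 and 1.92 extended reads per member read in the 2-month replicates 1 and 2 and the 18-month replicates 1 and 2, and 22-mers had 0.137, 0.118, 0.0998 and 0.0870. The ratio was over 10 times higher for 18-mers in each of the 4 libraries. It peaked at 18 bases, with 1.09 at 17 bases and 0.639 at 19 bases, and it was 0.0339 at 16 bases and 0.0292 at 21 bases. An 18-mer with added bases lies inside the gel cut and an 18-mer without them below it, and the part of the size selection in this difference was not tested. Among the 9 isoacceptors with at least 5 CPM of members of 21 to 23 bases, the ratio ran from 0 to 0.151 with a median of 0.0509. His-GTG held 48.9 of the 57.8 CPM of extended reads at these lengths. Its ratio was 0.169 and 0.140 at 2 months and 0.131 and 0.141 at 18 months.

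Within the short class the ratio still depended on the tRNA. Among the 30 isoacceptors with at least 5 CPM of members of 17 to 19 bases, it ran from 0 to 5.51 with a median of 0.877. Leu-AAG was highest, with 4.64 and 5.16 extended reads per member read at 2 months and 4.67 and 7.94 at 18 months. Phe-GAA (3.09), Ala-CGC (2.75) and Cys-GCA (2.73) followed by their mean ratio. Ser-TGA (0.660), His-GTG (0.626) and Ser-AGA (0.610) were below 1, and for Ser-TGA and Ser-AGA this held in each of the 4 libraries.

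Mitochondrial fragments stood at the bottom of that range. The 17- to 19-base members of mitochondrial tRNAs had 2541 reads in the 4 libraries and 0 extended reads, which allows a ratio of up to 0.00118, whereas those of nuclear tRNAs had 31503 reads and 50742 extended reads. At a like level, the mt-Tv members of this length had a mean of 24.4 CPM and 0 extended reads, and the Ala-TGC members had 28.5 CPM and 45.3 CPM of extended reads. Rows without any RNA name were searched as well, and none of the 2023 was an extended member. The mitochondrial names refer to genes without the CCA, so that at least 80.0% of the bases of an exact mitochondrial member lay in its gene, against 78.9% for an 18-mer with 1 added base, and whether naming kept such reads out of the table was not tested.

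Trimmed ends were less frequent and followed the other class. Members without their last A (127 sequences) summed to 147 and 138 CPM in young and 140.1 and 104 CPM in old mice, and those without the last CA (72 sequences) to 53.5, 52.2, 85.0 and 81.2 CPM. Most of the former came from 21- to 23-base members, with a mean of 94.1 CPM against 34.0 CPM from 17- to 19-base members. Without its last A, a 17- to 19-base member lies below the gel cut and a 21- to 23-base member inside it. The part of the size selection in this difference was not tested. Reads lacking the last A or CA numbered 0.122 and 0.120 per member read at 2 months and 0.148 and 0.170 at 18 months. Both older libraries were higher, and the exact permutation p was 0.33, the smallest that this design allows. Most of that difference lay in reads that need not be 3' ends. Of the members of 23 or more bases, some lacked the T-loop letters TTCNA at the place where a tRNA has them, and the reads without CA that belonged to those members summed to 6.58 and 8.78 CPM in young and 50.9 and 46.5 CPM in old mice, of which 1 Asn-GTT read held 3.43, 3.16, 37.4 and 32.4 CPM. Over the other members, among them all of fewer than 23 bases, which were not checked by these letters, the ratio was 0.118, 0.114, 0.115 and 0.128. The ages overlapped (exact permutation p = 0.67).

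At 18 months the members made up a smaller share of the tRNA reads in the RISC. The share was 30.5% (95% Wilson interval 30.1 to 30.9%) and 28.9% (28.6 to 29.3%) at 2 months and 23.3% (23.01 to 23.6%) and 18.8% (18.4 to 19.1%) at 18 months, and the ages did not overlap. The intervals cover counting error only. In summed level the members stood at 1613 ± 46.4 CPM at 2 months and 1306 ± 302 CPM at 18 months (SD, n = 2 each), and the other tRNA reads at 3818 ± 95.7 and 4859 ± 192 CPM. The ages did not overlap in any of these, and the exact permutation p of each was 0.33. Without His-GTG the share was 21.8% and 20.8% in young and 17.4% and 16.9% in old mice, and the summed members were 1177 and 1136 CPM in young and 1134.0 and 986 CPM in old mice. The difference of the means of all members, 18 months less 2 months, was -307 CPM. Without replicate 2 of the 18-month mice it was -93.3 CPM, and without replicate 1 it was -521 CPM. The share of the members' reads that were 17 to 19 bases long was 54.4% and 52.1% in young and 54.5% and 65.8% in old mice (exact permutation p = 0.33), a mean difference of 6.86 percentage points that was 1.19 without replicate 2 of the 18-month mice and 12.5 without replicate 1. Without His-GTG the share was 75.4% and 72.0% in young and 72.3% and 72.8% in old mice.

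Across single sequences the age difference was near the background of the libraries. Of the 154 members that averaged 1 CPM or more, 21 passed an unadjusted p of 0.05 with limma, 6 higher and 15 lower at 18 months. That is 13.6% against 10.1% of all 14287 sequences tested, of which 5.87% were higher and 4.23% lower. Fewer members passed when any 1 library was left out, and the count over all sequences was lower in each of these fits too. None passed after Benjamini-Hochberg adjustment over all sequences, where 0.042% of all sequences did, with a lowest adjusted p of 0.301 from limma. At an unadjusted p of 0.05 edgeR called 15 members (6 higher, 9 lower) and DESeq2 7, against 1360 and 941 of all 14287 sequences. The median log2 change of the 154 was -0.10, against -0.01 over all sequences. The ages did not overlap for 65 of the 154 members, and this was so for 41.7% of all sequences tested.

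Summed by isoacceptor, 5 of the 55 tested passed an unadjusted p of 0.05, 2 higher and 3 lower at 18 months, which is 9.09% against 11.4% of the 1585 items in the summed table (3.79% higher and 7.57% lower). Fewer isoacceptors passed when either 18-month library was left out, and the count over all items was lower in these fits too. Again none passed after adjustment by limma over all items, where 0.442% of all items did and the lowest adjusted p of an isoacceptor was 0.269, and edgeR called 4 (2 higher, 2 lower) at an unadjusted p of 0.05. The median log2 change was -0.02 over the 55 isoacceptors and -0.12 over all items. The median over all items was -0.003 with edgeR and -0.13 when limma was run after median-of-ratios scaling. Of the called items 60 of 180 were higher at 18 months by limma, 58 of 178 by limma after that scaling and 98 of 159 by edgeR, and which of the differences between limma and edgeR moved this split was not tested.

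Glycine fragments were among the lower ones. Gly-TCC members summed to 44.6 and 49.2 CPM in young and 8.89 and 32.8 CPM in old mice, a log2 change of -1.39 (SE 0.45, limma unadjusted p = 0.00990, adjusted p = 0.269). Replicate 1 of the 18-month mice was the low library, and without it the log2 change was -0.50 with an unadjusted p of 0.143. In that library the extended Gly-TCC reads were also low, at 3.12 CPM against 40.3, 46.9 and 28.7 CPM in the other 3. All Gly-TCC-named reads that did not end in CCA stood at 27.2 CPM there and at 59.6, 72.7 and 54.2 CPM in the others. They include extended reads with a tRNA name, so they are not a separate measure. The Gly-TCC reads below were among the 5 members with the largest lower mean at 18 months of those that passed an unadjusted p of 0.05.
18 bases: tTCCCGGccaacgcacca
17 bases: tCCCGGCcaacgcacca
19 bases: aTTCCCGgccaacgcacca
The 18-mer reached 19.5, 22.4, 2.74 and 17.2 CPM, the 17-mer 3.72, 5.09, 0.0950 and 2.87 CPM, and the 19-mer 5.53, 3.42, 0.378 and 2.10 CPM, each in the order of 2-month and 18-month replicates. Gly-GCC members summed to 21.6 and 26.5 CPM in young and 12.8 and 14.3 CPM in old mice (log2 change -0.78, SE 0.29, limma unadjusted p = 0.0200, adjusted p = 0.311). That call was lost without replicate 2 of the 2-month mice (-0.63) and without replicate 1 (-0.70) or 2 (-0.86) of the 18-month mice, and with DESeq2 (unadjusted p = 0.0606). Leaving out replicate 1 of the 18-month mice also ended the calls of the 3 Gly-TCC reads, with log2 changes of -0.27 for the 18-mer, -0.47 for the 17-mer and -0.80 for the 19-mer. The calls of the 18-mer and the 19-mer were lost without replicate 1 of the 2-month mice (-1.50 and -1.10), and those of the 18-mer and the 17-mer without replicate 2 (-1.31 and -1.20). The 18-mer and the 17-mer also did not pass with edgeR (unadjusted p = 0.158 and 0.127) or DESeq2 (0.0978 and 0.0932). Gly-CCC, with an overlapping pair of ages, had a log2 change of -0.04 (SE 0.25, unadjusted p = 0.889).

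The His-GTG members had a log2 change of -1.17 (SE 0.44, limma unadjusted p = 0.0220, adjusted p = 0.323). Replicate 2 of the 18-month mice decided it, since without that library the log2 change was -0.24 with an unadjusted p of 0.361. With edgeR the summed log2 change was -0.73 with an unadjusted p of 0.131. The 22-mer alone had a log2 change of -1.18, and -0.28 without that library, and its call was also lost with edgeR (unadjusted p = 0.106), with DESeq2 (0.0701) and without replicate 1 (-1.12) or 2 (-1.24) of the 2-month mice. In that library the extended His-GTG reads were also low, at 16.8 CPM against 83.7, 65.9 and 52.0 CPM in the other 3. All His-GTG-named reads that did not end in CCA, extended ones included, stood at 184 CPM there and at 229, 185 and 249 CPM in the others. The Val-CAC 17-mer with the toxic seed was the other abundant member on the lower side, at 46.6 and 52.6 CPM in young and 34.4 and 23.7 CPM in old mice (log2 change -0.77, SE 0.32, unadjusted p = 0.0398, adjusted p = 0.468). That call was lost without replicate 1 (-0.86) or 2 (-0.69) of the 2-month mice and without replicate 2 of the 18-month mice (-0.51), and with DESeq2 (unadjusted p = 0.0579). Its sequence is 1 base shorter than the printed Val-CAC read and is given with the seed in capitals.
Val-CAC, 17 bases: aCCGGGCggaaacacca
The Val-CAC members as a whole had a log2 change of -0.25 (SE 0.25, unadjusted p = 0.346).

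On the higher side stood aspartate and asparagine fragments of low level. Asp-GTC members summed to 4.96 and 9.83 CPM in young and 14.4 and 17.5 CPM in old mice (log2 change 1.07, SE 0.36, unadjusted p = 0.0110, adjusted p = 0.269). Asn-GTT members summed to 6.39 and 7.38 CPM in young and 12.4 and 14.0 CPM in old mice (log2 change 0.85, SE 0.31, unadjusted p = 0.0186, adjusted p = 0.310). Both calls were lost without replicate 1 of the 2-month mice (0.64 for Asp-GTC and 0.76 for Asn-GTT), without replicate 1 of the 18-month mice (1.21 and 0.93) and without replicate 2 of the 18-month mice (0.94 and 0.77). The Asn-GTT reads that did not end in CCA were far more frequent, at 145 and 149 CPM in young and 769 and 718 CPM in old mice (log2 change 2.33, SE 0.23, adjusted p = 0.000470). Asp-GTC reads without the CCA end went from 97.2 and 144 CPM to 67.3 and 107 CPM (unadjusted p = 0.134), and the difference between the 2 kinds of read was not tested. The 5 members with the largest higher mean at 18 months, among those that passed an unadjusted p of 0.05, were the following reads, shown with the seed in capitals.
Asp-GTC, 18 bases: tTCCCCGacggggagcca
Asp-GTC, 17 bases: tCCCCGAcggggagcca
Leu-TAA, 18 bases: aCCCCACttctggtacca
mt-Tv, 23 bases: aTGACCAatgaacactctgacca
mt-Tr, 21 bases: gATGTTCataattaccaacca
The Asp-GTC 18-mer reached 2.00 and 4.39 CPM in young and 6.998 and 7.50 CPM in old mice, and the 17-mer 0.381 and 0.615 CPM in young and 2.46 and 2.76 CPM in old mice. The Leu-TAA 18-mer went from 1.05 and 1.67 CPM to 4.07 and 2.54 CPM, the mt-Tv 23-mer from 1.05 and 1.32 CPM to 2.74 and 2.87 CPM, and the mt-Tr 21-mer from 0.572 and 0.527 CPM to 2.08 and 1.65 CPM. Of these 5 reads, the Asp-GTC 17-mer passed whichever library was left out, and each of the others lost the call in 2 to 4 of the 4 fits with 1 library less. With DESeq2 the Asp-GTC 17-mer passed (unadjusted p = 0.0104), and the Asp-GTC 18-mer (0.0515), the Leu-TAA (0.0948), the mt-Tv (0.115) and the mt-Tr read (0.0742) did not. The Leu-TAA and mt-Tv reads also missed the threshold with the replicate number as a block (0.0558 and 0.0511). These levels correspond to few reads, since 1 read was worth between 0.0878 and 0.110 CPM.

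Grouped by origin or amino acid, few isoacceptors passed. None of the 14 mitochondrial tRNAs passed an unadjusted p of 0.05 with limma, and their summed members stood at 122 and 121 CPM in young and 129 and 128 CPM in old mice, with a median log2 change of 0.18 against -0.12 over all items. None of the 9 isoacceptors of leucine, serine and tyrosine passed (median log2 change -0.14). By side chain of the amino acid, 0 of 15 hydrophobic, 3 of 15 polar (1 higher, 2 lower), 1 of 3 acidic (higher) and 1 of 8 basic (lower) isoacceptors passed, beside the 11.4% of all items. The 3 acidic isoacceptors, of aspartate and glutamate, had a median log2 change of 0.60 and summed to 25.7 and 20.02 CPM in young and 39.2 and 29.6 CPM in old mice without overlap. Of these only Asp-GTC was apart between the ages by itself. Glu-CTC (log2 change 0.03) and Glu-TTC (0.60) each overlapped. The medians were -0.14 for the hydrophobic, 0.01 for the polar and 0.04 for the basic isoacceptors. Among the tRNA reads that did not end in CCA, 13 of 51 isoacceptors passed, 10 higher and 3 lower, and 2 of them also after adjustment by limma.

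Of the miRNAs used as markers of cell types, those of endothelium summed to 12243 and 11472 CPM in young and 5422 and 8990 CPM in old mice, and those of choroid plexus and ependyma to 13020.0, 19235, 26824 and 24865 CPM. Both lists were apart between the ages, as was the list of immune cells (3139 and 3566 CPM against 2767 and 2897 CPM). Neuronal markers lay between 169186 and 195706 CPM, oligodendrocyte markers between 4119 and 6565 CPM, and red blood cell markers, with 2 of 3 found, between 1698 and 3374 CPM, each with overlapping ages. The part of cell composition in the age differences above was not tested.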

How the data were processed

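Small RNA libraries were made from the Argonaute pull-downs and sequenced on an Illumina instrument per the labels. The authors trimmed the reads (Trim Galore is named in the submitters' processing notes), removed rare reads, compared the rest with lists of mouse small RNAs by BLAST and brought every library to an equal sum. The deposited table holds these scaled read counts (CPM) for each sequence, its 6mer seed and the deposited viability score of that seed, which is an average over mouse cell lines. Versions and genome build were not given in the sources used here. The CPM values were whole multiples of 1 read for 100% of nonzero values, from which the reads per library were recovered. The deposited total signal of each sequence over the libraries, which the authors summed from the CPM values, was not used in any test. The members, lists and tests were chosen with earlier results of these data known.

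Libraries were grouped by the age in their labels. Log2(CPM + 1) was fitted for sequences averaging 1 CPM or more over the 4 libraries by limma (version 3.58.1) with a mean-variance trend, for single sequences and for a table summed by miRNA name, tRNA isoacceptor and other RNA name, with Benjamini-Hochberg adjustment over the whole table. A fold change on this scale understates the change of low sequences. Values of 1 number per library were compared by exact two-sided permutation. The script was tested on simulated data. Named were isoacceptors with a mean of at least 10 CPM, the most abundant member of each of the 10 most abundant isoacceptors, every member with an adjusted p under 0.05 (there was none), and, of the members that passed an unadjusted p of 0.05 without overlap of the ages, the 5 that rose and the 5 that fell most in mean CPM. Other values named were chosen after they were seen, as were the searches for added bases and for position 58. Of the 120 members of 23 or more bases, 34 had the letters TTCNA of the T loop at the position where the tRNA has them, so that some long members may not be 3' ends. Among the 67 nuclear ones 32 had them. The same letters were used for nuclear and mitochondrial members, so mitochondrial members without them may still be 3' ends. Shorter members do not reach these letters and were not checked by them, so some of those may not be 3' ends either. Mitochondrial tRNAs were named by their coordinates in GENCODE vM21. Alternatives were other pseudocounts (0.1 and 5), filters (none, and at least 10 CPM), limma without the trend, edgeR and DESeq2 on whole reads, median-of-ratios scaling, a replicate block and leaving out each library.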

Additional observations from a re-analysis of the deposited data

How the results depend on the processing

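Of the 154 member sequences tested, 21 passed an unadjusted p of 0.05. The count was 58 of 860 without a filter on low values, where more sequences were tested (3327 of 85704 over all sequences). It was 1 of 24 with a mean of at least 10 CPM, where fewer were (424 of 3141), and 7 with DESeq2 (941 of 14287). It ran from 7 to 18 when each library was left out in turn. The count of isoacceptors, 5 of 55, was 3 with DESeq2 and ran from 1 to 6 when libraries were left out. No member sequence passed after adjustment in any of these settings or with the other pseudocounts, limma without the trend, edgeR, median-of-ratios scaling or the replicate block. Of the fits to all 4 libraries, only the one without a filter gave isoacceptors that passed after adjustment. They numbered 2, where 22 of all 8948 items passed. Some fits with 1 library left out gave such calls too, with 1 library alone in a group. With DESeq2, 134 of all 1585 items passed an unadjusted p of 0.05.

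With the replicate number as a block, 21 members passed (4 higher, 17 lower) and 5 isoacceptors (2 higher, 3 lower). In that fit 1530 of all 14287 sequences and 193 of all 1585 items passed. Deviations of libraries with the same number correlated at 0.036 over sequences and 0.073 over summed items. Nothing in the labels ties equal numbers together, and whether such libraries shared more than a number is not known.

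Of 214 alternative values of the 17 log2 changes named, 62 lost the call and 5 changed sign. The latter were of uncalled isoacceptors. Gly-CCC was at 0.13 with edgeR and with DESeq2 and ran from -0.24 to 0.17 with libraries left out, also being above 0 at 0.03 without replicate 1 of the 2-month mice, and Val-CAC ran from -0.50 to 0.0055. The mean viability of the members differed by -1.02 percentage points and ran from -2.33 to 0.29 with libraries left out, and the share under 50% viability differed by 2.14 points and ran from -0.25 to 4.53. Without His-GTG, an alternative chosen after seeing the data, these 2 differences were 0.73 and -0.64, and that of the 17- to 19-base share was -1.15. The causes of these shifts were not tested. With 2 libraries per age no single value could pass a permutation test, and members near 1 CPM rested on about 10 reads per library.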

Other observations

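A further 1217 sequences ended in CCA, matched no miRNA and carried no tRNA name. They summed to 1257 and 1121 CPM in young and 1079 and 1022 CPM in old mice. Of these, 408 were named after miRNA precursors, and 194 after the precursors of miR-124, a miRNA family of neurons, with a mean of 756 CPM.

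All 14 mitochondrial tRNAs with members lie on the plus strand of chromosome M, where 127 reads matched a gene's last bases followed by CCA, 121 of them with a tRNA name. The 8 tRNA genes of the minus strand had 0 members. For these genes 48 sequences matched the gene's last bases and CCA exactly, all under mRNA names, with 12.01 and 18.9 CPM in young and 15.6 and 22.1 CPM in old mice.

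The members and their extended and trimmed forms together made up 59.9% and 56.9% of the tRNA reads in young and 44.9% and 42.6% in old mice. The remaining tRNA reads summed to 2166 and 2357 CPM in young and 3589 and 3337 CPM in old mice. The base just before the CCA, known as the discriminator base, was A in 74.1%, G in 16.8%, T in 6.07% and C in 3.04% of the members' reads.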
